A study of Rattus norvegicus with 6 samples.

Results

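Circular RNAs (circRNAs) whose ends lie 50000 nt or more apart on the chromosome, but whose spliced sequence has at least 250 and under 1000 nt, were examined in the rat thalamus. They are called wide circles here. They were chosen by the length of the deposited sequence and by the distance between the ends in its header, without use of read counts, and numbered 1630 of 32445 circRNAs (5.02%), or 5.66% of the 28787 circRNAs in that length range. RNA came from the thalamus, the relay of sensory input to the cortex, of 6 rats. To model chronic orofacial pain, 3 rats received 50 µL of CFA (Freund's complete adjuvant, which provokes lasting joint inflammation) in both temporomandibular joints and the other 3 received 50 µL of saline there. Injections were given 2 times a week, and the thalamus was collected at 14 days. Strain, sex and age: not given in the sources used here. Deposited files do not pair the circRNAs with host genes, so the tissue label could not be checked against marker genes, and positions follow the deposited headers (genome build: not given in the sources used here). RNA was purified on poly-T beads, which bind poly(A) and so favour RNAs other than closed circles. Whole tissue was used, so fewer cells with a circle and fewer copies per cell cannot be told apart.

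A circRNA forms when the donor site at the end of an exon is joined back to the acceptor site at the start of the same or an upstream exon. The exons enclosed in the circle are usually kept and the introns between them removed. Neurons express many such circles, and because these lack free ends they resist exonucleases. A wide circle therefore comes from exons set among long introns. In the wide circles the spliced sequence was a median of 0.698% of the genomic span. The median length was 450.5 nt (quartiles 371 and 558 nt) and the median span 63221.5 nt (quartiles 55805.5 and 75351.5 nt). The widest circle of the whole table spanned 99940 nt and 0 reached 100000 nt, so wider circles were not analysed here.

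The back-splice junction is what sets circles of one gene region apart, and the deposited junction sequence holds 29 nt from each side of it. At the locus with the most wide circles and the most wide-circle reads, the circles reuse a small number of ends, as 7 of their junctions on the plus strand of chromosome 5 show. Lower case marks the last bases of the circle, up to the donor, and capitals mark the first bases, from the acceptor.
681 nt circle, chr5:167516581-167581074: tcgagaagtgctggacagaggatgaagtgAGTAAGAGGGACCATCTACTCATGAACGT
846 nt circle, chr5:167486001-167581074: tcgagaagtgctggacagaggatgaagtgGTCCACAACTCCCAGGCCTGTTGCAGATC
722 nt circle, chr5:167486001-167558250: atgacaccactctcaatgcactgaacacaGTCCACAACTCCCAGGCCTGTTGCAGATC
497 nt circle, chr5:167486001-167547741: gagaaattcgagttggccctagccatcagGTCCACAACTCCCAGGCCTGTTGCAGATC
762 nt circle, chr5:167516581-167615430: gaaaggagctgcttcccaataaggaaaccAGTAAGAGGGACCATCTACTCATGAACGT
478 nt circle, chr5:167526171-167581074: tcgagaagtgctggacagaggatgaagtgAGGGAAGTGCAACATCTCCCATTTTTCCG
695 nt circle, chr5:167516567-167581074: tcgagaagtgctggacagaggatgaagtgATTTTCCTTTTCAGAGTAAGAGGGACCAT

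The 681 nt circle of this locus was the most abundant wide circle, and its level varied little between rats. The CFA libraries held 1398, 1187 and 1969 reads and the saline libraries 1249, 2606 and 1965, or 2129, 1822 and 2179 RPM against 2177, 2216 and 2099 RPM (reads per 1000000 circRNA reads of the library). The RPM of both groups overlapped, and their coefficient of variation over the 6 libraries was 6.85%. The fitted log2 fold change (CFA minus saline) was -0.11 ± 0.24 (SE), and it did not pass (edgeR quasi-likelihood, Benjamini-Hochberg adjusted p = 0.9999).

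The locus held 12 wide circles among 33 circRNAs. The 12 were built from 7 acceptors and 4 donors, and 6 of them used the donor at 167581074. Not all of the 28 combinations of these ends can be wide circles, so 12 of 28 does not measure selective pairing. The acceptor at 167557023 lies downstream of the donor at 167547741. Other combinations were read as circles too narrow to count as wide. The donor at 167558250 had 11234 reads with the acceptor at 167516581 and 1214 with that at 167518801, summed over the 6 libraries. The acceptor at 167486001 was joined to the donors at 167581074, 167558250 and 167547741 in circles of 1108, 849 and 407 RPM (means over the 6 libraries). The acceptor at 167516581 was joined to the donors at 167581074 and 167615430 in circles of 2104 and 630 RPM. Per kb of circle, the levels of the 681, 846, 722, 762 and 497 nt circles were 3089, 1310, 1175, 827 and 819 RPM per kb, so the 681 nt circle led on this scale too. The same acceptor also gave the most abundant circle of the locus, a 582 nt circle that ends at 167558250 and spans 41670 nt, with 2267 RPM or 3895 RPM per kb.

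**Figure D1:**
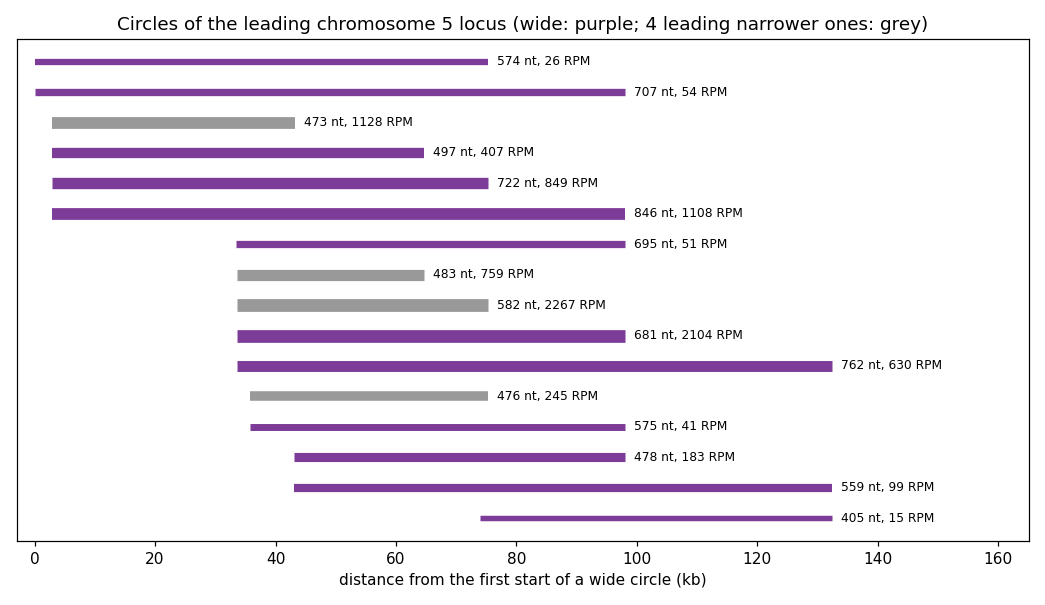
Wide circles (purple) and the 4 leading narrower circles (grey) of the chromosome 5 locus, drawn by distance in kb from the first start of a wide circle. Line width grows with log10 of the mean RPM over the 6 libraries, and each label gives the length and that mean; the 12 wide circles share 7 acceptors (left ends) and 4 donors (right ends).

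Reads to the donors at 167581074 and 167558250 were compared for the 6 acceptors joined to both. For the acceptor at 167516581, reads to the first donor were 0.869 to 0.991 times those to the second across the 6 libraries. For the acceptor at 167486001 this ratio was 1.01 to 1.53, for that at 167526171 it was 1.08 to 2.92 and for that at 167483059 it was 1.48 to 3.46. These 3 ranges overlap. Library by library, the acceptor at 167483059 had a higher ratio than that at 167486001 in 6 of 6, while the place of that at 167526171 among them changed. For the acceptor at 167516567 the ratio was 0.528 to 1.37, on either side of 1. For the acceptor at 167518801 it was 0.107 to 0.194, below the ratio of each other acceptor in every library. These ratios were chosen after their values were seen and are given without a test. The circles differ in length, which is the same in every library and so does not change the spread of a ratio.

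The 681 nt circle shared an end with 6 other wide circles, and its sequence was nested with that of 5 of them. The whole 681 nt sequence was found at the 3′ end of the 846 nt circle and at the 5′ end of the 762 nt circle. The 575 and 478 nt circles ended in 575 and 478 nt of the 681 nt sequence, that is, they lay wholly within it. The 707 nt circle from 167483059 to 167581074 shared only 374 nt with it. The 695 nt circle was the 681 nt circle with 14 nt before it, ATTTTCCTTTTCAG, from an acceptor called 14 nt upstream. It had 50.8 RPM, 2.41% of the 681 nt circle. Among all wide circles, 17 pairs had one end in common and the other end within 50 nt, and they involved 34 circles.

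After CFA and after saline, the wide circles of this locus summed to 5503 ± 187 and 5628 ± 461 RPM (SD, 3 rats per group), a difference smaller than the spread between the saline rats (two-sided exact permutation p = 0.9, where 3 rats against 3 cannot give a p below 0.1). They made up 51.8 ± 1.59% and 50.8 ± 2.16% of the locus reads (SD, 3 rats per group; two-sided exact permutation p = 0.6). Of the 12, 1 had RPM that did not overlap between the groups, where 3.42% of all circRNAs tested were lower in CFA without overlap. The 575 nt circle from 167518801 to 167581074 had 22, 14 and 31 reads in CFA rats against 30, 62 and 49 after saline. The fitted log2 fold change was -0.84 ± 0.53 (SE), and it did not pass (edgeR quasi-likelihood, Benjamini-Hochberg adjusted p = 0.912).

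Over the whole genome, the 1630 wide circles fell into 851 of the table's 9563 loci, each a stretch of 1 strand covered without a break by circRNAs. In 499 loci there was 1 wide circle and in 352 there were several. Loci with a wide circle held a median of 7 circRNAs of any span, against 1 at the other loci. Loci were drawn by overlap, so a wide span takes in more circles, and this contrast partly follows from the span rule. A wide circle was the most abundant circRNA in 254 of the 851, and 63 of the 851 held wide circles alone. Wide circles held a median of 18.3% of the reads of their locus. At least one end was shared with another circRNA in 92.1% of wide circles and both ends in 53.6%. Among the 24196 medium circles, the spliced circles of the same length range with spans from 2000 to under 50000 nt, these shares were 81.3% and 32.6%. The shares are given as a description without a test.

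Pairs of wide circles that shared an end were seldom nested in sequence. Of 691 such pairs, the narrower circle lay wholly within the wider one in 128 (18.5%). In 278 pairs (40.2%) the circle with the wider span had the shorter sequence. From the shared end, the sequences of a pair were identical for a median of 219 nt and for 42 nt at the least. Junction reads show the ends of a circle and not all exons inside it, and how the inner sequence was assembled was not analysed here.

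The wide circles lay on 21 chromosomes, 827 on the plus and 803 on the minus strand. As a share of wide and medium circles together they ranged from 1.80% on chromosome 12 (11 wide circles) to 9.48% on chromosome 13 (91 wide circles). Base composition was close to that of the medium circles. The median GC content was 47.8% (quartiles 44.7 and 50.9) against 47.6% (44.1 and 51.2), and the last base before the donor was G in 78.7% against 79.2%. The sequence ended in AG in 55.2% and 56.2%, the letters found at the ends of many exons.

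A frame without a stop codon through the whole sequence was less common the wider the span. To hold length nearly fixed, circles of 350 to under 550 nt were compared. Such a frame was present in 65.5% of the 2340 circles spanning 2000 to 4999 nt and in 42.2% of the 3563 spanning 20000 to under 50000 nt. It was present in 40.5% of the 363 wide circles below 60000 nt and in 36.2% of the 207 wide circles of 75000 nt or more. Among circles read in all 6 libraries the decline was of similar size, from 68.3% to 42.9%, but not steady. It was 48.0% at 50000 to 59999 nt, 38.7% at 60000 to 74999 nt and 42.9% at 75000 nt or more. Read in reverse, 2.98% of wide and 3.07% of medium circles in this length window had such a frame. No start codon was asked for. These are properties of the deposited sequences, with no replicate, and are given as a description.

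**Figure D2:**
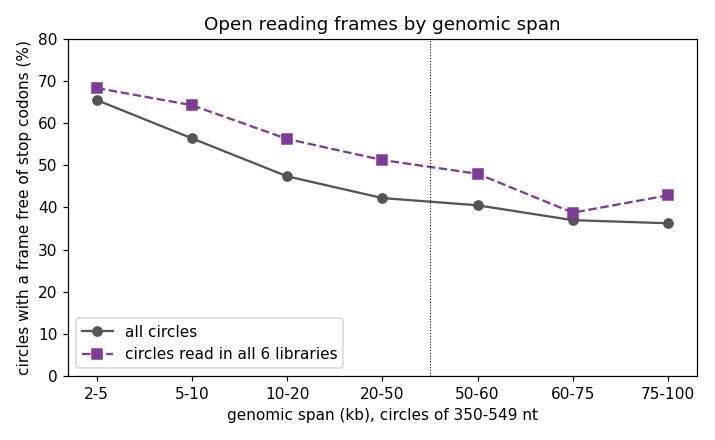
Share of circles of 350 to under 550 nt with a stop-free reading frame (%), by genomic span in kb, for all circles (circles, solid) and for those read in all 6 libraries (squares, dashed). The dotted line marks 50 kb; the share falls from 65.5% in the narrowest class shown to 36.2% in the widest.

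The 10 most abundant wide circles held 21.1% of all wide-circle reads, and 9 of the 10 were read in every library. A 652 nt circle (chr12:43501060-43576734, minus strand) had 2214, 2348 and 2062 RPM after CFA and 1828, 2111 and 1849 RPM after saline. A 608 nt circle (chr7:78462288-78520474, plus strand) had 2080, 1682 and 1349 RPM against 1736, 1609 and 3029 RPM. Both overlapped between the groups, the second with 1 saline library far above the rest. A 908 nt circle (chr3:54509941-54566332, minus strand) had 2137, 1420 and 2620 RPM against 1931, 1687 and 1220 RPM. A 567 nt circle (chr8:23508992-23560371, plus strand) had 1439, 1610 and 1412 RPM against 1593, 2152 and 1664 RPM. These again overlapped. Per kb of circle, the chromosome 12, 7, 5 and 8 circles had 3173, 3148, 3089 and 2902 RPM per kb, and the chromosome 3 circle had 2022 RPM per kb. Compared library by library on this scale, the chromosome 3 circle was below the chromosome 12 and chromosome 5 circles in 6 of 6 libraries, while it was above the chromosome 7 and 8 circles in CFA replicate 3. Among the chromosome 12, 7, 5 and 8 circles the order changed between libraries for every pair. Across the 10 the log2 fold changes lay between -0.36 and 1.29, and 0 passed (edgeR quasi-likelihood, lowest Benjamini-Hochberg adjusted p = 0.929).

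**Figure D3:**
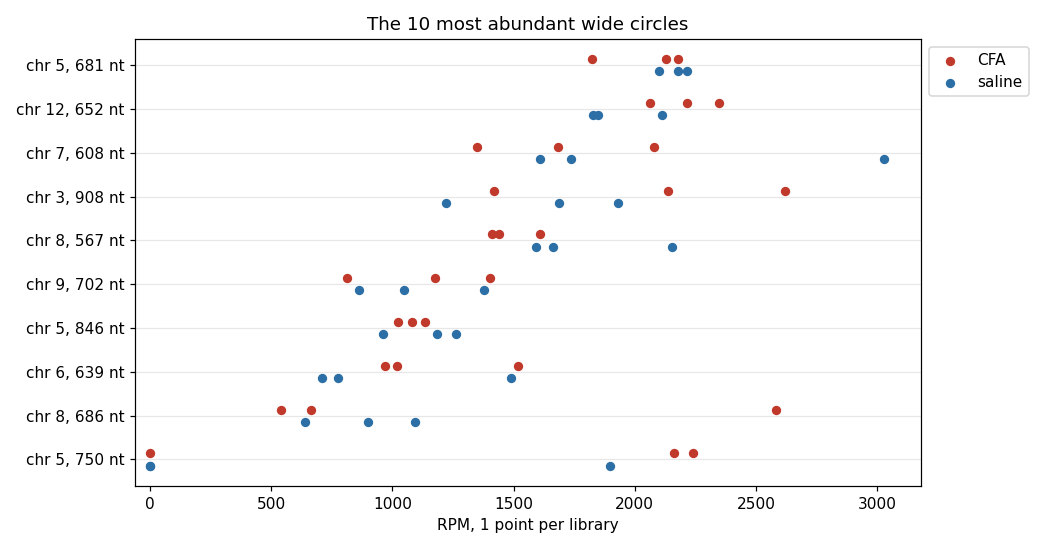
RPM of the 10 most abundant wide circles, 1 point per library, CFA in red and saline in blue; rows are ordered by mean RPM. The upper rows show overlapping groups read in every library, and the lowest row, the 750 nt circle, has 3 libraries near 2000 RPM and 3 at 0.

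The presence of some abundant wide circles varied between libraries of the same group. The 750 nt circle (chr5:2257913-2314821, plus strand) had 1470, 1409 and 0 reads in the CFA libraries and 1089, 0 and 0 in the saline libraries. The 3 libraries at 0 were the deepest, with 903443, 1176178 and 936062 circRNA reads against 573696 to 656598 in the other 3; the part of depth in this pattern was not tested. A 713 nt circle with the same acceptor, 2257913 to 2356122, had 0, 55 and 121 reads in CFA rats and 0, 153 and 0 after saline. Their junctions show the same acceptor and different donors.
750 nt circle, chr5:2257913-2314821, plus strand: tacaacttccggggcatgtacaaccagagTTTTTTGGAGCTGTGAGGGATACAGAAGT
713 nt circle, chr5:2257913-2356122, plus strand: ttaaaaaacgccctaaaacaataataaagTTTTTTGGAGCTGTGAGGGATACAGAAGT

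Such gaps were few but large. Of the 250 wide circles with a mean of at least 50 RPM, 13 were listed at 0 in 1 or more libraries. The same share among medium circles or all circRNAs was not analysed here, so such gaps are not read as particular to wide circles. A 922 nt circle (chr13:109403515-109471561, minus strand) had 395 reads in CFA replicate 1 and is listed at 0 in the 5 other libraries. A 660 nt circle (chr13:82091840-82164226, plus strand) had 182, 0 and 220 reads in CFA rats against 175, 272 and 187 after saline. A 499 nt circle (chr16:4222176-4283627, plus strand) had 76, 71 and 71 reads against 26, 56 and 0. A 717 nt circle (chr6:28022406-28112938, plus strand) had 32, 108 and 58 against 9, 48 and 0. Both had RPM higher in CFA without overlap, as had 3.21% of all circRNAs tested. Neither passed (edgeR quasi-likelihood, Benjamini-Hochberg adjusted p = 0.912 each). Some circles read everywhere also had 1 library apart. A 686 nt circle (chr8:33279134-33335423, plus strand) had 542, 2583 and 663 RPM after CFA against 638, 901 and 1095 RPM. Among wide circles above 100 RPM the median coefficient of variation over the 6 libraries was 29.99%, against 24.3% among medium circles above 100 RPM.

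Wide circles were rarely among the sparsely read ones. Fewer than 10 reads over the 6 libraries were found for 7.55% of wide circles (123 of 1630) and 28.96% of medium circles (7006 of 24196). Reads in all 6 libraries were found for 42.6% (694) and 27.2% (6591), and reads in 1 library alone for 9.57% (156) and 27.1% (6560). In each of the 6 libraries, the share of circles with fewer than 5 reads, among those read there, was lower for wide circles, with differences of -8.50 to -4.44 percentage points. The mean difference was -6.94 ± 1.52 percentage points (SD, n = 6; exact two-sided sign-flip permutation test, p = 0.0313, the smallest it allows). The 6 libraries draw on the same circles, so this SD and p do not measure the spread between circles. Within 350 to under 550 nt the mean difference was -4.94 percentage points, again below 0 in 6 of 6 libraries. The rule of neither class used counts, but members were chosen with earlier results of these data known. This comparison was chosen after the counts were seen.

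Sparse circles were fewer at wider spans, and all but the upper end of the distribution was higher. Among circles of 350 to under 550 nt, the 10th percentile of reads over the 6 libraries was 4 for spans of 2000 to 4999 nt, 6 for 20000 to under 50000 nt, 11 for 50000 to 59999 nt and 16 for 75000 nt or more. The median was 23, 32, 42 and 62 reads, and the 75th percentile was 75, 82, 84 and 119.5 reads. The 90th percentile was 233, 213, 224 and 225 reads in the same classes. From the 10th to the 75th percentile the counts were thus higher in the widest class than in the narrowest at nearly the same length, and at the 90th they were not.

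**Figure D4:**
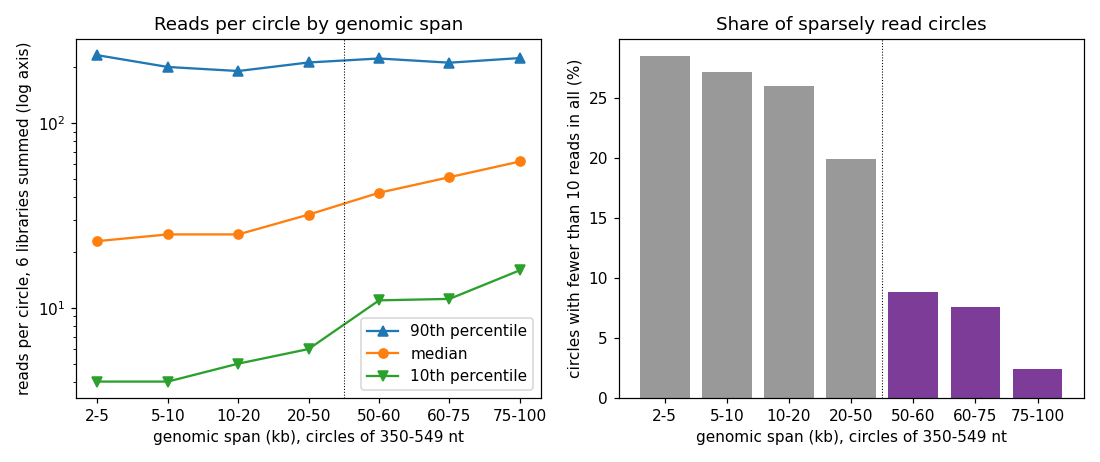
Circles of 350 to under 550 nt by genomic span (kb). Left, the 10th percentile, median and 90th percentile of reads per circle, summed over 6 libraries, on a log axis; right, the share of circles with fewer than 10 reads (%), with wide circles in purple. The 90th percentile stays near 200 reads while the share of sparse circles falls from 28.5% to 2.42%.

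On average a wide circle held 1.37 to 1.51 times as many reads as a medium circle in each library. The mean log2 ratio was 0.52 ± 0.057 (SD, n = 6), above 0 in 6 of 6 libraries (exact two-sided sign-flip permutation test, p = 0.0313, the smallest it allows). All 6 libraries read the same circles, so this SD and p describe the libraries and not the spread between circles. The 10 most abundant circles of each class held 21.1% of wide-circle reads and 6.64% of medium-circle reads. Wide circles were also longer, with 27.4% of them at 550 nt or more against 14.6% of medium circles. When the medium circles were weighted to the same length classes the log2 ratio was 0.0496 ± 0.0633, above 0 in 5 of 6 libraries (exact two-sided sign-flip permutation test, p = 0.156). By length class the direction varied. Wide circles had the higher mean level at 250 to 349 nt, with 13.4 RPM against 8.93 RPM for medium circles, and at 550 to 699 nt, with 81.2 against 66.3 RPM. They had the lower one at 350 to 449 nt (19.1 against 20.7 RPM), at 450 to under 550 nt (33.6 against 39.1 RPM) and at 700 nt or more (142 against 147 RPM). Weighted over these classes, the log2 ratio was not detectably different from 0 over the 6 libraries. The spread between circles within a class was not tested.

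The share of the circRNA pool in wide circles was compared between the groups. Of all circRNA reads, 7.42%, 7.48% and 6.78% fell in wide circles in the CFA libraries and 6.89%, 6.90% and 7.17% in the saline libraries. The 95% Wilson intervals of the lowest and highest of these ran from 6.73% to 6.83% and from 7.42% to 7.55%. The groups overlapped. The means were 7.23 ± 0.390% and 6.99 ± 0.159% (SD, 3 rats per group), 0.240 percentage points higher in CFA (two-sided exact permutation p = 0.4). Without CFA replicate 3 the difference was 0.464 percentage points, and without CFA replicate 2 it was 0.113. Without the 750 nt circle that is at 0 in 3 libraries it was 0.157 percentage points (two-sided exact permutation p = 0.5).

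The share of circRNAs seen that were wide circles was 6.75 ± 0.173% after CFA and 6.59 ± 0.363% after saline (SD, 3 rats per group; two-sided exact permutation p = 0.6). It was highest, at 6.997%, in the shallowest library, saline replicate 1, and lowest, at 6.31%, in the deepest, saline replicate 2. After thinning each library to 573696 reads it was 6.77 ± 0.144% and 6.63 ± 0.324% (SD, 3 rats per group; two-sided exact permutation p = 0.5).

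For single circles, 1507 of the 1630 passed the filter of at least 10 reads over the 6 libraries and were tested in a fit over all 22426 circRNAs that passed it. Of the 1507, 1 was called higher in CFA (0.0664%) and 0 lower, where over all circRNAs tested 0.0624% were called higher and 0.0624% lower (edgeR quasi-likelihood, Benjamini-Hochberg adjusted p under 0.05). Without adjustment, edgeR gave p under 0.05 for 31 wide circles higher in CFA (2.06%) and 23 lower (1.53%), against 1.23% and 1.45% of all tested. DESeq2 called 0 wide circles, with 14 higher and 16 lower at an unadjusted p under 0.05. Its shares over all circRNAs were not analysed here, so these 2 counts are not set against them. RPM of the groups did not overlap for 50 wide circles higher in CFA (3.32%) and 60 lower (3.98%), against 3.21% and 3.42% of all tested. The edgeR and overlap shares lay close to those of all circRNAs, and the larger gap, that of the higher circles at an unadjusted p, was not tested.

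The 1507 tested wide circles had a median log2 fold change of -0.07 (quartiles -0.62 and 0.48), against -0.05 for all 22426. Of the 130 wide circles above 100 RPM, 89.2% lay within 0.5 of 0 on the log2 scale, with a median SE of 0.36. For all 1705 circRNAs above 100 RPM this share was 89.97%. Most wide circles are read too thinly for such precision, and the median SE over the 1507 was 1.21.

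The single call rests on 1 library. novel_circ_0035798, a 606 nt circle (chr5:64346707-64399407, plus strand), had 81 reads in CFA replicate 3 and is listed at 0 in CFA replicates 1 and 2 and in the 3 saline libraries. Pooled over the group it was at least 32.8-fold higher in CFA, with saline set at 3 reads over its 3 libraries (edgeR quasi-likelihood, Benjamini-Hochberg adjusted p = 0.0117). The groups overlapped, since both held libraries at 0. Without CFA replicate 3 no read of it remained. The call was also lost without CFA replicate 2 (edgeR quasi-likelihood, Benjamini-Hochberg adjusted p = 0.0715). It was lost without any 1 saline replicate and with a filter of at least 30 counts (0.9998 or higher each in the same edgeR test, adjusted alike). A listed 0 may be 1 read, since the lowest count above 0 in the table was 2.
606 nt circle, chr5:64346707-64399407, plus strand: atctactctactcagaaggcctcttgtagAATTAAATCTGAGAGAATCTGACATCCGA

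None of the 5 other wide circles with the smallest p toward higher values passed. A 562 nt circle (chr3:54455979-54519757, minus strand) had 133, 73.7 and 81.9 RPM after CFA and 38.3, 37.4 and 23.5 RPM after saline. Each CFA library was above each saline library. The fitted log2 fold change was 1.51 ± 0.47 (SE; edgeR quasi-likelihood, Benjamini-Hochberg adjusted p = 0.478). A 952 nt circle (chr4:132024754-132114473, minus strand) had 359, 36.8 and 215 RPM against 36.6, 35.7 and 97.2 RPM. Here 2 CFA libraries were high and the other lay among the saline libraries. The fitted log2 fold change was 1.81 ± 0.45 (SE; edgeR quasi-likelihood, Benjamini-Hochberg adjusted p = 0.110), and it passed in edgeR without CFA replicate 2 (1.33e-05), without saline replicate 3 (0.000739) and without a filter on counts (0.0220). A 357 nt circle (chr2:109306662-109366472, minus strand) had 24, 43 and 20 reads in CFA rats against 0, 14 and 16, with RPM that did not overlap. A 457 nt circle from chromosome 11 had 5, 73 and 45 against 5, 10 and 31 reads, and a 429 nt circle from chromosome 7 had 0, 6 and 39 reads against 0 in the 3 saline libraries.

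None of the 5 with the smallest p toward lower values passed either. A 681 nt circle (chr19:12652625-12713398, minus strand) had 53.3, 24.6 and 45.4 RPM after CFA and 153, 87.6 and 135 RPM after saline. Each CFA library was below each saline library. The fitted log2 fold change was -1.61 ± 0.43 (SE; edgeR quasi-likelihood, Benjamini-Hochberg adjusted p = 0.138). A 515 nt circle (chr6:124625936-124677509, minus strand) had 42.6, 75.2 and 52.0 RPM against 87.2, 95.2 and 151 RPM, again without overlap, at -1.03 ± 0.42 (SE). A 461 nt circle (chr15:923843-977590, plus strand) was listed at 0 in the 3 CFA libraries and had 10, 23 and 3 reads after saline. A 567 nt circle from chromosome 7 had 7, 18 and 0 reads against 14, 40 and 55, and a 609 nt circle from chromosome 1 had 17, 5 and 26 against 29, 30 and 79. The junctions of the circle with the smallest p among those without overlap, 1 in each direction, were as follows, both from minus-strand loci and printed in the sense direction.
562 nt circle, chr3:54455979-54519757: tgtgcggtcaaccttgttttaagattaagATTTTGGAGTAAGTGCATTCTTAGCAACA
681 nt circle, chr19:12652625-12713398: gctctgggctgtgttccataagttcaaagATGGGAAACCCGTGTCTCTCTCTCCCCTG

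**Figure D5:**
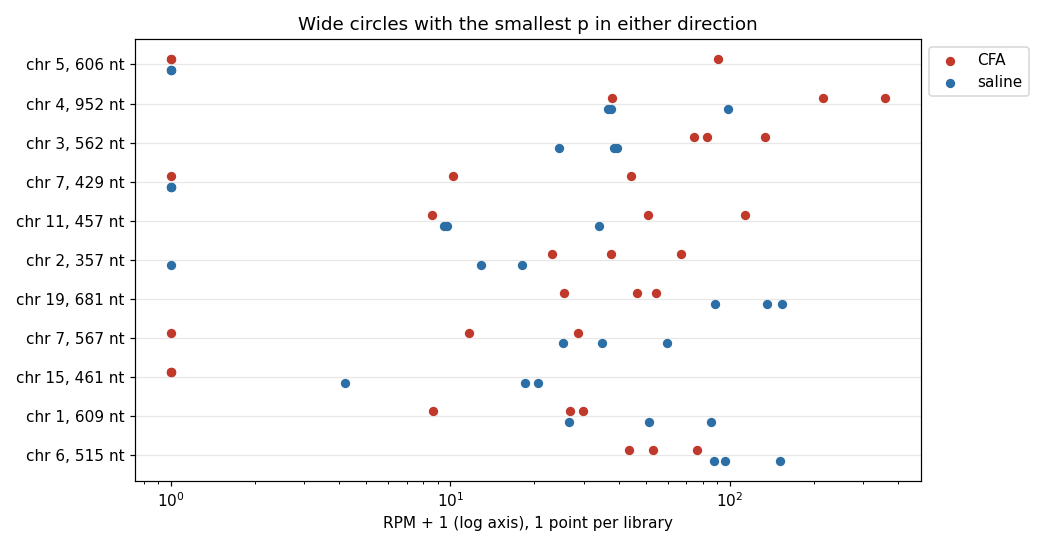
RPM + 1 (log axis) of the called wide circle and of the 5 others with the smallest p in each direction, 1 point per library, CFA in red and saline in blue; points at 1 are libraries listed at 0 reads. The upper 6 rows are higher in CFA and the lower 5 lower; the top row, the called circle, has reads in 1 library.

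Predicted miRNA binding was a further aim of the study. A miRNA guides silencing complexes mainly through its seed, bases 2 to 8, and one well-known brain circRNA carries many sites for miR-7. Matches to the seeds of 7 miRNAs were counted in the wide circles on the sense strand and across the back-splice junction, as the 7-letter complement of the seed. The mature rat sequences, from RefSeq on build GRCr8, have the seed in capitals.
miR-7a-5p: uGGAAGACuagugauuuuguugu
miR-9a-5p: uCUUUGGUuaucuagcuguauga
miR-128-3p: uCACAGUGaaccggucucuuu
miR-138-5p: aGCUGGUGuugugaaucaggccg
miR-146a-5p: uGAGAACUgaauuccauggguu
miR-21-5p: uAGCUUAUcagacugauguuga
miR-155-5p: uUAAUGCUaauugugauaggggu

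At least 1 match was found in 81 wide circles for miR-7a (GTCTTCC, 4.97%, against 3.67% of medium circles) and in 115 for miR-9a (ACCAAAG, 7.06% against 5.82%). It was found in 132 for miR-128 (CACTGTG, 8.10% against 6.14%) and in 112 for miR-138 (CACCAGC, 6.87% against 6.15%). For miR-146a (AGTTCTC), miR-21 (ATAAGCT) and miR-155 (AGCATTA), which are tied to immune responses, the wide circles with a match numbered 70, 28 and 48. These were 4.29%, 1.72% and 2.94% of wide circles, against 3.69%, 1.86% and 2.22% of medium circles, so miR-21 alone of the 7 had the lower share in wide circles. Wide circles are longer, so matches per kb are the closer comparison. Circles of a locus can share sequence, so the same site may be counted in several circles, and matches per kb do not correct for this. At least one end was shared in 92.1% of wide and 81.3% of medium circles. They were 0.113 in wide and 0.0898 in medium circles for miR-7a, 0.153 and 0.143 for miR-9a, 0.184 and 0.151 for miR-128, and 0.157 and 0.154 for miR-138. For miR-146a they were 0.0912 and 0.0895, for miR-155 0.0616 and 0.0530, and for miR-21, lower in wide circles on this scale too, 0.0385 and 0.0448. A seed match describes the letters and does not show binding.

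The wide circles with the most matches to one of these seeds were 2 circles from the plus strand of chromosome 18 that share the donor at 71104420. Each held 4 matches to the miR-7a seed, and of all 32445 circRNAs only these 2 had 4 or more. The 4 matches lay in the same stretches of sequence in both circles, so they are not separate sets of sites. At 3 or more there were 7 in all, 2 of them wide. The matches of the 623 nt circle, 71053204 to 71104420, are shown with 11 nt on either side and the matched letters in capitals, named by position from 1 at the acceptor.
position 98: cgctaactaagGTCTTCCttgctagaacc
position 401: cagcaatgattGTCTTCCtttcctgtcag
position 480: gcaaggtccatGTCTTCCctacaccagca
position 563: ccggaacccatGTCTTCCctcagcagtcg

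This circle was read in every library, with 75, 60 and 152 reads in CFA rats and 95, 150 and 102 after saline. Its levels were 125 ± 39.2 and 134 ± 28.9 RPM (SD, 3 rats per group), which overlapped. The log2 fold change was -0.11 ± 0.38 (SE; edgeR quasi-likelihood, Benjamini-Hochberg adjusted p = 0.9999). The other, a 607 nt circle from 71042136, had 5 reads in CFA replicate 3 and 10 in saline replicate 2 and was listed at 0 elsewhere. Both were chosen after the match counts were seen.

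The circles next to the span threshold, 5 on either side, are described without a test. The 5 circles just inside it, with spans of 50005 to 50042 nt, were read in 5 or 6 libraries at 6.74 to 17.6 RPM. Of the 5 just outside, with spans of 49969 to 49997 nt, 2 were read in 6 libraries at 11.7 and 15.0 RPM and 3 in 1 library at 1.13 to 1.84 RPM. The 5 widest, with spans of 99379 to 99940 nt, were read in 2 to 6 libraries at 5.77 to 18.4 RPM.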

How the data were processed

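Members and lists were chosen with earlier results of these data known. Per the labels' protocols, thalamus RNA of 6 rats was purified with poly-T beads, reverse transcribed from random hexamers, then amplified by PCR. Per the submitters' processing notes, the tools included DESeq2 1.20.0, featureCounts 1.5.0-p3, HISAT2 2.0.5 and StringTie 1.3.3b (circRNA caller and build: not given in the sources used here). In the deposited table are raw read counts per circRNA and, named TPM in the header, the authors' RPM without a length term. All RPM in the text come from those counts, over the library's circRNA total. The deposited sequence file gives each spliced sequence, 58 nt junction and position; 1 was added to starts. Repeat entries of 44 circRNAs differed by at most 2 nt at an end, none of them wide, and the first was kept.

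Depth was 573696 to 1176178 reads per library. Intervals cover counting error only, since PCR reads without molecular identifiers are not independent. circRNAs with at least 10 counts were tested in edgeR 4.0.16 (R 4.3.3; TMM, robust quasi-likelihood, no covariates, Benjamini-Hochberg over all tested, threshold 0.05), and the script was tested on simulated data. SE is the fitted log2 difference divided by the square root of the F statistic. DESeq2 1.42.0 was an alternative. Shares were compared by exact permutation over libraries. Wide and medium circles were compared by sign flips of the 6 library differences. Labels describe separate rats. Named were the 10 most abundant, the 5 widest, those beside the threshold, all called, the 5 smallest p per direction and the leading locus; circles with a mean of 50 RPM or more that are at 0 in some library, and the miR-7a circles, were added after values were seen. Host gene lists could not be used, as no host names are paired, and miR-124 was not analysed here.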

Additional observations from a re-analysis of the deposited data

How the results depend on the processing

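The count of called wide circles was 1 in edgeR with TMM and with RLE, 2 without a filter, 0 under a filter of 30 counts (20 reached an unadjusted p under 0.05), 0 with filterByExpr (14) and 0 in DESeq2 (30; 4 adjusted p-values were NA). At spans of 60000 nt or more and of 75000 nt or more, both chosen after the data were seen, it was 0 (40 and 18 at an unadjusted p under 0.05 in edgeR). With each library left out in turn there were 1 to 4 calls, 4 without saline replicate 3, and the call of novel_circ_0035798 was among them only without CFA replicate 1. Same-numbered rats did not deviate together (r of 0.03, -0.01 and -0.15 over 6462 circRNAs, and 0 of 6 libraries correlated best with their own number), so the numbers are not read as pairs. With the replicate block edgeR called 5 wide circles, 0 of them shared. Among them were the 499, 717 and 922 nt circles listed at 0 in some library. The shares called over all circRNAs in the alternative settings were not analysed here, so these counts are not set against them. With the block, the differences in read share and in circles seen stayed at 0.240 and 0.168 percentage points (exact sign-flip permutation p of 0.5 and 0.75).

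For the called circle and the 10 others with the smallest p, 117 of 126 alternative values kept direction and side of the threshold, 6 lost a call, 3 gained one and 0 turned. The 126 hold no value for novel_circ_0035798 with filterByExpr, in DESeq2 or without CFA replicate 3, and it was not called in any of these either. The difference in read share was 0.113 to 0.464 percentage points and that in circles seen 0.0279 to 0.373 with 1 library left out, and both stayed toward CFA in each alternative run. The log2 ratio of reads per circle, wide to medium, was 0.0496 weighted to the same length classes (exact permutation p = 0.156, chosen after the data were seen), 0.35 per nt and 0.70 at 75000 nt or more. With 1 library left out it was 0.509 to 0.536, where 5 libraries cannot give a p below 0.0625 in the exact sign-flip permutation test; the difference in circles under 5 reads was then -7.44 to -6.63 percentage points. A threshold of 100000 nt was not run, since 0 circles reach it.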
